A study of Homo sapiens with 14 samples.

Results

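The genes described here carry out or control the oxidation of fatty acids in 2 human liver cancer lines under compression. They are 34 genes taken by name from the 56479 entries of a raw count table. The set holds the receptor PPARA, genes it is known to control, and the enzymes that take up fatty acids and break them down in mitochondria and peroxisomes. Of the 34, 33 had enough counts to be tested, among 19232 genes tested in all. The remaining member, CYP4A11, which starts the omega-oxidation of fatty acids, had 1 count in 1 of 14 libraries. That library was replicate 2 of HepG2 in 4% PEG.

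RNA was sequenced in 7 groups of 2 libraries. HepG2, labelled a hepatoblastoma line, was grown on dishes, either isotonic or with 4% PEG 300. PEG 300 is a polyethylene glycol, which makes the medium hyperosmotic so that cells lose water and shrink, and the dish cultures lasted 5 days. HepG2 was also grown on transwell membranes, either uncompressed or under a weight. Hep3B, labelled a hepatocellular carcinoma line, was grown on transwells uncompressed, under a weight or with 3% PEG. Both lines carry the genotype label WT, and no group was engineered. Neither the size of the weight nor the time spent on transwells is given in the sources used here. HepG2 has 2 controls, isotonic on dishes and uncompressed on transwells, while in Hep3B the weight and the 3% PEG comparison share the same 2 uncompressed libraries.

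Fatty acids enter liver cells through carriers such as CD36 and SLC27A2 and are held in the cytosol by FABP1. After activation to acyl-CoA they cross into mitochondria by the carnitine shuttle, in which CPT1A is the step that sets the rate. The chain is then shortened by a repeating spiral of dehydrogenation, hydration, dehydrogenation and thiolysis. Electrons leave through the electron transfer flavoprotein, and liver cells turn much of the acetyl-CoA into ketone bodies. PPARA is a nuclear receptor that fatty acids activate. It pairs with RXR on DNA and raises many of these genes during fasting.

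Libraries held 21.2 M to 35.4 M counts, of which the 34 genes took 0.209% to 0.392%. Hepatocyte markers were detected in every library, with HNF4A, a transcription factor that defines the cell type, at 226 to 455 CPM. RB1, a tumour suppressor lost in Hep3B, stood at 101 to 147 CPM in HepG2 and 2.63 to 4.94 CPM in Hep3B. Of 14 markers of other cell types, the leukocyte gene PTPRC, the endothelial gene KDR and the fibroblast gene DCN stayed at or below 0.192 CPM. LYZ, a myeloid marker, was at 485 to 4928 CPM in HepG2, and the others reached at most 27.0 CPM (PDGFRB). The dish replicates differed more than the transwell replicates. Their biological coefficient of variation was 0.323 in isotonic medium and 0.29 in 4% PEG, against 0.0434 to 0.0704 on transwells. All libraries share 1 estimate of the spread in the tests, which is therefore low for dishes and high for transwells. The labels number the replicates without describing separate cultures, so p-values measure the spread between labelled samples, which may be technical. CPM, the usual per-million unit, is a gene's count relative to the library's scaled total, log2 changes carry ± their standard error, and an adjusted p is from edgeR's quasi-likelihood test over all 19232 genes. A gene is said to rise or fall where that p is under 0.05. Groups are said to be apart, or not to overlap, where every library of 1 lies beyond those of the other. With 2 libraries on each side that is common by chance, and its share over all genes was not counted. In bulk RNA, fewer cells of a type and less RNA per cell cannot be told apart.

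Promoters were searched for the element that PPARA and RXR are known to bind, a direct repeat of AGGTCA with 1 base of any kind (N) between the copies. RefSeq windows (GRCh38.p14) from 250 bases before to 50 bases after a gene's start were at hand for 26 of the 34 genes, in 40 windows. The repeat, on either strand and with up to 2 mismatches, was found in 5 of the 40 windows (12.5%), against 2.97% of the 35116 windows in the table. It lay in CREB3L3, FABP1, SLC27A2, ACAA2 and CD36. An exact copy of AGGTCA on either strand was in 2 of 40 windows (5%) against 13.8% of all windows. The windows were those of CREB3L3 and FABP1, where a copy lies inside the repeat. FABP1 has a further copy outside it, on the gene's strand from base +12. A match is a description of the letters and no evidence of binding. The promoters of CREB3L3, FABP1 and SLC27A2 are shown because in them the match lies before both the RefSeq start and the start of the annotated gene. For ACAA2 and CD36 it lies inside the annotated gene, so only the match is given. Capitals mark the match, and letters run along the gene's strand.
CREB3L3, chr19:4153381-4153600, + strand: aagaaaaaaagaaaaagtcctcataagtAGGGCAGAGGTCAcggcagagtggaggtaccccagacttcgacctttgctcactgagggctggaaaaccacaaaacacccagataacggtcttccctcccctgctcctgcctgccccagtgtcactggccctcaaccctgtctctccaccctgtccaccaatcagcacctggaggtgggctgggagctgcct
FABP1, chr2:88128117-88128312, - strand: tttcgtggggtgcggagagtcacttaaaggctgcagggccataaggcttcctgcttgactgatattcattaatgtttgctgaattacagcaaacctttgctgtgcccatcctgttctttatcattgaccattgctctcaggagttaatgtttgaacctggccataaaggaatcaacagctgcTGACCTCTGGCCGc
SLC27A2, chr15:50181946-50182195, + strand: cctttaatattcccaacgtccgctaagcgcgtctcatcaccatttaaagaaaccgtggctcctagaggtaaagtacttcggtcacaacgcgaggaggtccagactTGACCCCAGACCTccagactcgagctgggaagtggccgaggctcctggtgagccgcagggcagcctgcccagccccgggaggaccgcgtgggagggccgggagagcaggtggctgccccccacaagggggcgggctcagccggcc
The match began 222 bases before the start of CREB3L3, with 1 mismatch. In FABP1 it began 68 bases before the start and in SLC27A2 145 bases before, both with 2 mismatches and on the opposite strand. The match in ACAA2 was AGGTGAAAGGGCA (chr18:49813597-49813609, - strand, 76 bases before the RefSeq start, on the gene's strand). The match in CD36 was TGGCCTCTGACTT (chr7:80638369-80638381, + strand). It lies in 1 of the 6 windows of CD36, 147 bases before a start that is 268.9 kb inside the annotated gene, and the repeat is on the strand opposite to the gene. Each had 2 mismatches. All 5 genes with a match fell in HepG2 with 4% PEG, as did 21 of the 33 tested members and 23% of all genes. The falls of CREB3L3 and SLC27A2 did not hold on the dish libraries alone without use of the replicate numbers. Nor did they hold when libraries were scaled by total counts alone. A link between match and change was not tested. In Hep3B with 3% PEG, CREB3L3 rose, FABP1 and ACAA2 fell, and SLC27A2 and CD36 did not pass the test.

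The lines differed in these genes before any compression. On transwells 23 of the 33 genes were lower in uncompressed Hep3B than in uncompressed HepG2 and 2 were higher, where 54.7% of all genes differed, 27.1% lower and 27.6% higher. The median change of the members was -0.71, against 0.02 for all genes. Hepatocyte markers were lower in 7 of 9 cases (median -1.29), with a summed level of 42980 and 45690 CPM in Hep3B against 81460 and 89520 CPM in HepG2. Leukocyte markers, mostly LYZ, summed to 16.6 and 16.8 CPM against 4847 and 4932 CPM. Endothelial markers summed to 0.664 and 0.667 CPM against 7.00 and 7.07 CPM, and stellate markers to 12.4 and 15.1 CPM against 27.2 and 25.8 CPM. The stellate markers did not move together. Of 4 tested, 2 were higher in Hep3B and 1 lower (median 2.59). LUM was higher, at 6.39 to 16.7 CPM over all Hep3B libraries and 0 to 0.159 CPM over all HepG2 libraries. The part of these markers in the result was not tested.
PPARA (chromosome 22, 46150521 to 46243756) stood at 124 and 126 CPM in the HepG2 libraries and 37.7 and 38.7 CPM in Hep3B, 3.27-fold lower (-1.71 ± 0.12, adjusted p = 2.18e-07). CREB3L3, a liver transcription factor that works with PPARA, stood at 22.2 and 20.5 CPM against 6.29 and 7.51 CPM (-1.63 ± 0.19). Every HepG2 library, compressed or not, held more PPARA than every Hep3B library.

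FABP1, the liver's fatty acid binding protein (chromosome 2, 88122982 to 88128116), was the most abundant member per kb of exon in HepG2. It stood at 945 and 943 CPM in HepG2 and 95.0 and 86.8 CPM in Hep3B, a 10.4-fold gap (-3.38 ± 0.19, adjusted p = 3.45e-08). ACOX2, the peroxisomal oxidase for branched chains and bile acid precursors, showed a wider gap, with 30.65 and 28.96 CPM against 1.15 and 1.54 CPM (-4.46 ± 0.34). The groups were far apart for both genes.

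HADHA and HADHB encode the subunits of the mitochondrial trifunctional protein, which handles long chains. HADHA stood at 452 and 455 CPM in HepG2 and 117 and 114 CPM in Hep3B (-1.97 ± 0.09, adjusted p = 7.37e-09). HADHB stood at 211 and 204 CPM against 93.9 and 92.6 CPM (-1.15 ± 0.10). Per kb of exon, the mean ratio of HADHA to HADHB was 2.13 in HepG2 and 1.21 in Hep3B. The genes lie head to head and overlap (HADHA at 26190635 to 26244726 and HADHB at 26243170 to 26290468 of chromosome 2), and whether counting used strand is not given in the sources used here. ETFA and ETFB encode the electron transfer flavoprotein. ETFB stood at 222 and 217 CPM in HepG2 and 43.7 and 39.9 CPM in Hep3B (-2.39 ± 0.14), while ETFA differed by -0.27 ± 0.09. The ratio of ETFB to ETFA per kb was 0.788 in HepG2 and 0.180 in Hep3B. The span of ETFB overlaps another protein-coding gene on the same strand, AC008750.8, whose part in these values was not tested.

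Among peroxisomal and ketone body genes, ACAA1, the peroxisomal thiolase, stood at 87.1 and 88.1 CPM in HepG2 and 31.4 and 27.9 CPM in Hep3B (-1.56 ± 0.29). BDH1, which makes the ketone body 3-hydroxybutyrate, stood at 36.4 and 33.4 CPM against 7.90 and 8.53 CPM (-2.09 ± 0.29). ACAT1, the mitochondrial acetoacetyl-CoA thiolase, stood at 138 and 132 CPM against 63.2 and 62.6 CPM (-1.10 ± 0.13). The acyl-CoA thioesterases ACOT1 and ACOT2 were lower as well, at -1.56 ± 0.39 and -1.39 ± 0.30. ACOT1 stood at 18.8 and 19.4 CPM against 6.74 and 6.21 CPM, and ACOT2 at 35.9 and 35.8 CPM against 14.1 and 13.3 CPM. Both are near-identical copies on chromosome 14 whose reads the counting could split, so their separate values are uncertain.

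DECR1, the reductase needed for unsaturated fatty acids (chromosome 8, 90001405 to 90052092), went the other way. It stood at 52.1 and 52.2 CPM in HepG2 and 149 and 146 CPM in Hep3B and was 2.83-fold higher there (adjusted p = 8.95e-07). SCP2, the sterol carrier and peroxisomal thiolase, was the other gene higher in Hep3B, by 0.33 ± 0.12. CPT1A, SLC25A20, ACADVL, ACADS, ECHS1, ECI1, DECR2 and ETFDH did not pass the test between the lines. Scaled by total counts alone, the median of all genes moved to 0.35 in this comparison and the split became 15 lower and 5 higher. Fitted on the 10 transwell libraries alone, where 74% of all genes differed, 25 members were lower and 4 higher.

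**Figure D1:**
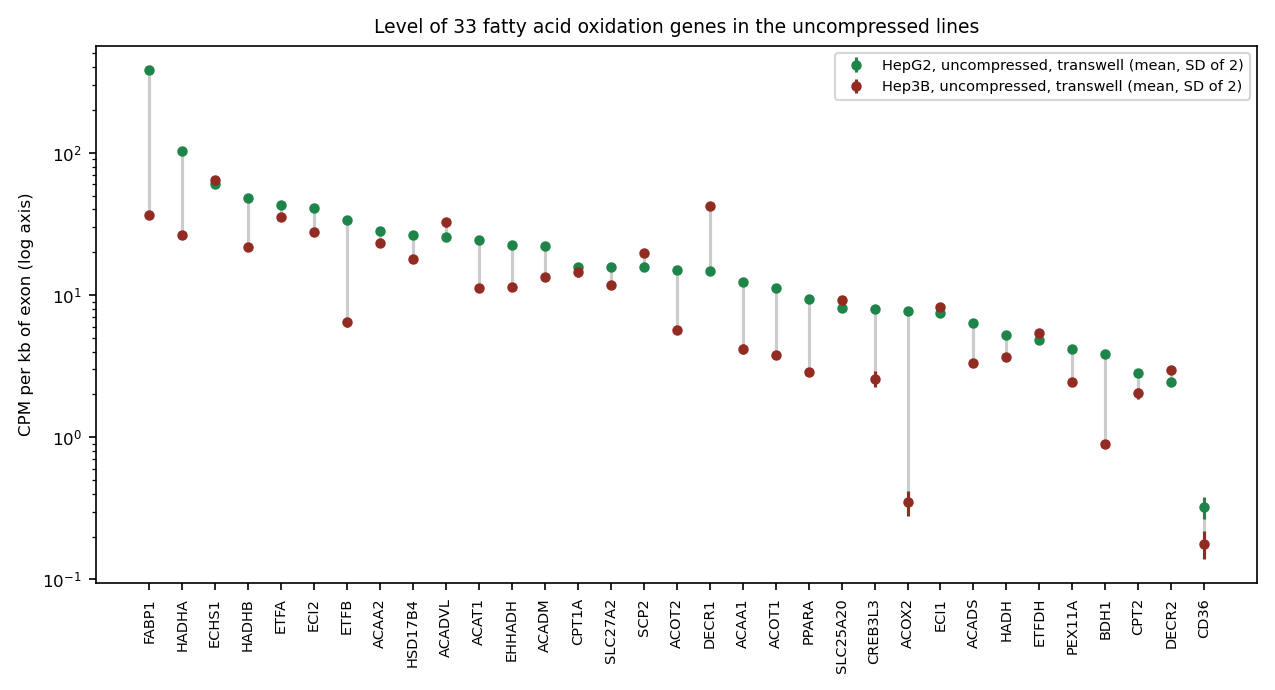
Mean level of the 33 tested genes (CPM per kb of exon, log axis) in uncompressed HepG2 and Hep3B on transwells, with bars for the SD of 2 libraries. FABP1, HADHA, ETFB, ACOX2 and BDH1 lie well below in Hep3B, and DECR1 lies above.

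HepG2 cells in 4% PEG were compared with isotonic medium on dishes, a test of osmotic compression. Members fell in 21 of 33 cases and rose in 1, where 46.9% of all genes changed, 23% lower and 23.9% higher. Their median was -0.67, against 0.01 for all genes. The 3 uptake genes had the lowest median of any role (-2.24), while PPARA itself did not pass the test. Fitted on the 4 dish libraries alone without use of the replicate numbers, where 22% of genes passed, 8 of the 21 falls held (CD36, FABP1, HADH, HADHB, ACAA2, ECI2, ETFB and EHHADH) and the rise did not.

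PPARA stood at 157 and 155 CPM in isotonic medium and 140.3 and 170.1 CPM in 4% PEG (-0.01 ± 0.11, adjusted p = 0.961). The treated libraries lay on both sides of the controls. CREB3L3 changed by -0.62 ± 0.18, which did not hold on the dish libraries alone (adjusted p = 0.194).

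All 3 uptake genes fell. FABP1 stood at 1324 and 1374 CPM in isotonic medium and 271 and 172 CPM in 4% PEG, 6.08-fold lower (-2.60 ± 0.18, adjusted p = 4.61e-07). CD36, the scavenger receptor that takes up long-chain fatty acids (chromosome 7, 80369575 to 80679277), stood at 3.11 and 4.6 CPM against 0.762 and 0.851 CPM, from 88 and 98 counts against 24 and 25 (-2.25 ± 0.32, adjusted p = 0.000139). No treated library reached the controls in either gene. SLC27A2, which carries and activates very long chains, changed by -0.39 ± 0.13 (adjusted p = 0.38 on the dish libraries alone).

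The carnitine shuttle moved both ways. CPT1A (chromosome 11, 68754620 to 68844410), its outer membrane transferase, stood at 211 and 210.3 CPM in isotonic medium and 124 and 141 CPM in 4% PEG (-0.67 ± 0.11, adjusted p = 0.00033). On the dish libraries alone that p was 0.0829. SLC25A20, the carrier across the inner membrane, was the member that rose (0.59 ± 0.17, adjusted p = 0.0123, or 0.271 on the dish libraries alone). CPT2, the inner transferase, was at 0.08 ± 0.15.

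Of 8 genes of the mitochondrial spiral 6 fell. HADH, the dehydrogenase for short and medium chains (chromosome 4, 107989714 to 108035175), stood at 41.8 and 59.4 CPM in isotonic medium and 10.6 and 11.2 CPM in 4% PEG (-2.21 ± 0.17, adjusted p = 8.93e-07). ACAA2, the mitochondrial thiolase, stood at 139 and 146 CPM against 64.5 and 54.6 CPM (-1.26 ± 0.11, adjusted p = 3.9e-06). HADHB stood at 187 and 188 CPM against 98.5 and 96.0 CPM (-0.95 ± 0.10), and HADHA changed by -0.46 ± 0.09. The groups did not overlap in these 4 genes, which was not counted over all genes. ACADM, the dehydrogenase of medium chains, changed by -0.90 ± 0.17. ACADS, that of short chains, stood at 12.4 and 34.6 CPM against 5.40 and 14.6 CPM. Its groups overlapped although it passed (-1.23 ± 0.45, adjusted p = 0.0406, or 0.211 on the dish libraries alone). ACADVL, for very long chains, and the hydratase ECHS1 did not pass, at 0.14 ± 0.26 and 0.05 ± 0.12.

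Electron transfer and auxiliary genes fell in part. ETFB stood at 269 and 346 CPM in isotonic medium and 130.4 and 159 CPM in 4% PEG (-1.09 ± 0.14, adjusted p = 5.28e-05), and ETFA changed by -0.78 ± 0.09. ETFDH, which passes these electrons to ubiquinone, was at -0.08 ± 0.15. ECI2, an isomerase for unsaturated chains, changed by -0.95 ± 0.11. The other auxiliary genes ECI1, DECR1 and DECR2 did not pass. ECI1, another isomerase, stood at 12.5 and 40.6 CPM in the isotonic libraries, a gap wider than that between the group means.

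Of 6 peroxisomal genes 5 fell. EHHADH, the bifunctional enzyme and a classic PPARA target (chromosome 3, 185190624 to 185281990), stood at 77.9 and 78.6 CPM in isotonic medium and 38.6 and 31.9 CPM in 4% PEG (-1.15 ± 0.12, adjusted p = 1.51e-05). ACAA1 stood at 58.3 and 123 CPM against 32.2 and 51.5 CPM, with a wide gap between the isotonic replicates (-1.11 ± 0.29). HSD17B4, the bifunctional enzyme for branched and very long chains, changed by -0.72 ± 0.10, PEX11A, a peroxisome division protein, by -0.80 ± 0.19 and SCP2 by -0.54 ± 0.12. ACOX2 was at 0.12 ± 0.28. Both ketone body genes fell: BDH1 stood at 22.4 and 42.8 CPM against 10.4 and 15.2 CPM (-1.35 ± 0.29), and ACAT1 changed by -0.48 ± 0.13. ACOT1 and ACOT2 did not pass, at -0.67 ± 0.38 and -0.28 ± 0.29.

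Other features of the 4% PEG libraries moved with these genes. Hepatocyte markers fell in 7 of 9 cases, and their summed level was 29950 to 32500 CPM in 4% PEG against 112000 to 118600 CPM in isotonic medium. The summed level of 5 leukocyte markers, nearly all of it LYZ, was 490 to 564 CPM against 3785 to 4629 CPM. Transcripts encoded in mitochondria took 7.34% and 5.05% of the counts in 4% PEG and 1.87% and 0.999% in isotonic medium. Their part in the result was not tested. Scaled by total counts alone, the median of all genes moved to 0.37 and that of the members to -0.31. The split was then 13 falls and 5 rises, the added rises being PPARA, CPT2, ECHS1 and DECR1.

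**Figure D2:**
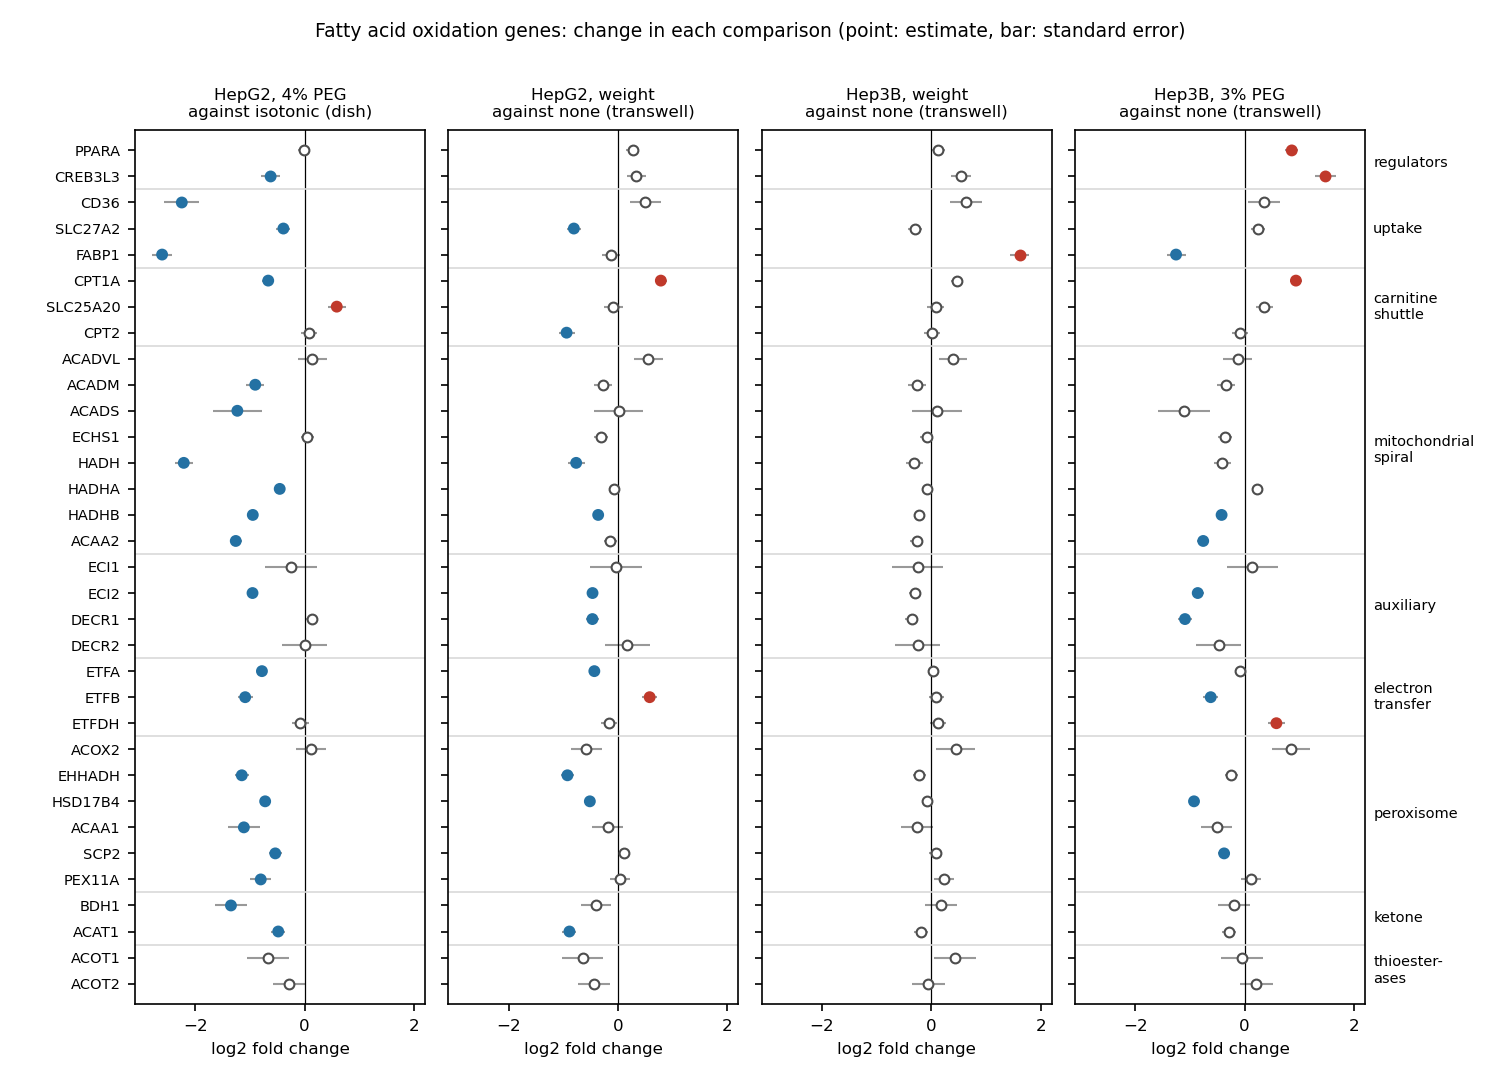
Log2 fold change (points) with its standard error (bars) of the 33 tested genes in each of the 4 comparisons, in order of role, with filled points where the adjusted p is under 0.05 (red for higher, blue for lower). Members fell in 21 of 33 cases in HepG2 with 4% PEG, in 10 in HepG2 under the weight and in 8 in Hep3B with 3% PEG, while FABP1 alone passed in Hep3B under the weight.

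HepG2 cells under a weight were compared with uncompressed cells on transwells, a test of mechanical load. Members fell in 10 of 33 cases and rose in 2, where 9.58% of all genes changed, 4.18% lower and 5.4% higher. Their median was -0.19, against 0 for all genes. CPT1A and ETFB rose, while CPT2, SLC27A2, EHHADH and ACAT1 fell most.

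Both carnitine transferases changed, in opposite directions. CPT1A stood at 106 and 103 CPM uncompressed and 169.9 and 188 CPM under the weight, 1.72-fold higher (0.78 ± 0.11, adjusted p = 0.00103). CPT2 (chromosome 1, 53196429 to 53214197) stood at 29.7 and 29.7 CPM against 15.6 and 15.4 CPM (-0.94 ± 0.15, adjusted p = 0.00242). Neither gene's groups overlapped. The ratio of CPT1A to CPT2 per kb of exon went from 5.66 and 5.51 in the uncompressed libraries to 17.4 and 19.5 under the weight. The span of CPT2 overlaps the protein-coding gene C1orf123 on the opposite strand, whose part in the ratio was not tested.

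EHHADH stood at 106 and 106 CPM uncompressed and 52.6 and 58.8 CPM under the weight (-0.92 ± 0.12, adjusted p = 0.000844). ACAT1 stood at 138 and 132 CPM against 75.2 and 71.0 CPM (-0.89 ± 0.13, adjusted p = 0.00148). Both groups were tight and apart. PPARA stood at 124 and 126 CPM against 139.7 and 161 CPM, above the controls in both libraries but not past the test (0.27 ± 0.12, adjusted p = 0.182). SLC27A2 changed by -0.81 ± 0.13, HADH by -0.76 ± 0.16 and HSD17B4 by -0.51 ± 0.10. The smaller falls were DECR1 and ECI2 (each -0.47), ETFA (-0.43) and HADHB (-0.36).

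The electron transfer flavoprotein's subunits parted: ETFB rose from 222 and 217 CPM to 341 and 316 CPM (0.58 ± 0.14, adjusted p = 0.0199), and ETFA changed by -0.43 ± 0.09. Their ratio per kb went from 0.797 and 0.779 to 1.65 and 1.52. FABP1, which fell in 4% PEG, was at -0.13 ± 0.17 here (adjusted p = 0.718). Members that did not pass included CREB3L3, CD36, ACADVL, ACADM, ECHS1, HADHA, ACAA2, ACOX2, ACAA1, SCP2 and BDH1.

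Leaving out any 1 of the 4 libraries lowered the number of members that passed, and that of all genes as well. CPT1A, SLC27A2, CPT2, EHHADH and ACAT1 passed each time. On the 10 transwell libraries alone, where 38.6% of all genes passed, 16 members fell and 7 rose, PPARA among the rises.

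The direct test of the PEG effect against the weight effect in HepG2 passed for 15 members, 12 lower and 3 higher with PEG, where 29.9% of all genes passed. Culture surface, kind of compression, time and any other difference between the dish and transwell sets cannot be told apart here. CD36 differed by -2.74 ± 0.43, FABP1 by -2.47 ± 0.24, ETFB by -1.67 ± 0.19 and CPT1A by -1.45 ± 0.15. CPT2 differed by 1.02 ± 0.21 in the other direction. Scaled by total counts alone the split was 6 lower and 6 higher, fitted on the 4 groups alone it was 8 and 1, and without replicate 2 of uncompressed HepG2 it was 7 and 1. Controls on the 2 surfaces themselves differed in 4 members, where 10.1% of all genes did, 4.79% higher and 5.33% lower on transwells. Surface, time and any other difference between the 2 sets cannot be told apart in that contrast either. CPT1A was lower on transwells than on dishes (-1.02 ± 0.11, adjusted p = 0.000805), as was ETFB (-0.49), and EHHADH and ACAT1 were higher (0.43 and 0.46). Fitted on those 2 groups alone, none of the 4 passed, nor did any other gene. Total-count scaling gave 7 higher and 1 lower. Without replicate 2 of isotonic HepG2 the count was 8, and without either uncompressed library it was 1.

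Hep3B cells under a weight were compared with uncompressed Hep3B. FABP1 was the only member to pass, where 1.05% of all genes changed, 0.879% higher. It stood at 95.0 and 86.8 CPM uncompressed and 265 and 292 CPM under the weight, 3.06-fold higher (1.61 ± 0.17, adjusted p = 0.000834). All 4 libraries were clearly parted. By unadjusted p under 0.05, 8 of the 33 members differed, against 1618 of all 19232 genes (8.41%).

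The next smallest p values did not pass. CPT1A stood at 90.4 and 99.6 CPM against 128 and 135 CPM (0.47 ± 0.11, adjusted p = 0.0722). DECR1 stood at 149 and 146 CPM against 117 and 114 CPM (-0.36 ± 0.12, adjusted p = 0.308). CREB3L3 stood at 6.29 and 7.51 CPM against 8.38 and 11.7 CPM (0.54 ± 0.18, adjusted p = 0.321). In each of the 3 the compressed libraries lay beyond the controls. With 2 libraries on each side this is common by chance, and it was not counted over all genes. PPARA stood at 37.7 and 38.7 CPM against 41.7 and 41.7 CPM (0.13 ± 0.12). On the transwell libraries alone, where 15.2% of all genes passed, 5 members rose and 9 fell. CPT1A and CREB3L3 were among those rises and DECR1 among the falls.

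The weight effect differed between the lines for 2 members by the interaction test, where 1.89% of all genes passed, 0.822% more positive in Hep3B and 1.07% more negative. FABP1 differed by 1.75 ± 0.24 (adjusted p = 0.00337), being higher in Hep3B and not past the test in HepG2. CPT2 differed by 0.95 ± 0.21 (adjusted p = 0.0408), being lower in HepG2 and at 0.01 ± 0.15 in Hep3B. The CPT2 difference was lost when any 1 of the 8 libraries was left out, and the count was then 1. On the transwell libraries alone, where 22.4% of all genes passed, 12 members were more positive in Hep3B and CPT1A and ETFB more negative.

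Hep3B cells in 3% PEG were compared with the same uncompressed libraries. Members fell in 8 of 33 cases and rose in 4, where 22.5% of all genes changed, 11.5% lower and 11% higher. Their median was -0.19, against -0.01 for all genes. The regulators PPARA and CREB3L3 rose together with CPT1A and ETFDH, while FABP1, DECR1 and the enzymes HSD17B4, ECI2 and ACAA2 fell.

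PPARA stood at 37.7 and 38.7 CPM uncompressed and 70.0 and 69.0 CPM in 3% PEG, 1.82-fold higher (0.86 ± 0.12, adjusted p = 0.000333). CREB3L3 (chromosome 19, 4153601 to 4173054) stood at 6.29 and 7.51 CPM against 18.8 and 19.7 CPM, 2.79-fold higher (1.48 ± 0.18, adjusted p = 0.000194). CPT1A stood at 90.4 and 99.6 CPM against 177 and 187 CPM (0.94 ± 0.11, adjusted p = 0.000101). Treated and control libraries were apart in all 3 genes, which was not counted over all genes. ETFDH changed by 0.58 ± 0.15.

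FABP1 fell from 95.0 and 86.8 CPM to 38.7 and 37.6 CPM (-1.25 ± 0.17, adjusted p = 0.000407). DECR1 fell from 149 and 146 CPM to 71.2 and 67.6 CPM (-1.09 ± 0.12, adjusted p = 8.86e-05). HSD17B4 (chromosome 5, 119452443 to 119637199) fell from 187 and 193 CPM to 103 and 97.2 CPM (-0.92 ± 0.10, adjusted p = 5.61e-05). None of these groups overlapped, which was not counted over all genes either. ECI2 changed by -0.86 ± 0.11, ACAA2 by -0.76 ± 0.11, ETFB by -0.62 ± 0.14, HADHB by -0.42 ± 0.10 and SCP2 by -0.37 ± 0.12. Members that did not pass included CD36 (0.35 ± 0.30), HADH (-0.41 ± 0.16), ACADS (-1.10 ± 0.47) and ACOX2 (0.84 ± 0.35).

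HADHA did not pass (0.23 ± 0.09, adjusted p = 0.0848) while its partner HADHB fell, and their ratio per kb went from 1.21 and 1.20 to 1.83 and 1.96. Of 9 hepatocyte markers 4 fell and 1 rose in the same libraries, and their part in the result was not tested. On the transwell libraries alone, where 52.6% of all genes passed, 16 members fell and 9 rose.

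The weight and 3% PEG share their controls in Hep3B, so their values for the members are set side by side. FABP1 was at 1.61 under the weight and -1.25 in 3% PEG, PPARA at 0.13 and 0.86, and CPT1A at 0.47 and 0.94. In the direct test of 1 treatment against the other 7 members were higher under the weight and 6 lower, where 23.1% of all genes differed. FABP1 was 7.29-fold higher under the weight than in 3% PEG (2.87 ± 0.18, adjusted p = 1.78e-06), at 265 and 292 CPM against 38.7 and 37.6 CPM. HSD17B4 was higher by 0.84 ± 0.10, with 183 and 176 CPM against 103 and 97.2 CPM, and DECR1 by 0.73 ± 0.12. PPARA was lower by 0.74 ± 0.12 under the weight, with 41.7 and 41.7 CPM against 70.0 and 69.0 CPM. Leaving out any 1 of the 4 libraries lowered the number of members that differed, and that of all genes as well. On the transwell libraries alone, where 52.1% of all genes passed, 23 members differed.

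**Figure D3:**
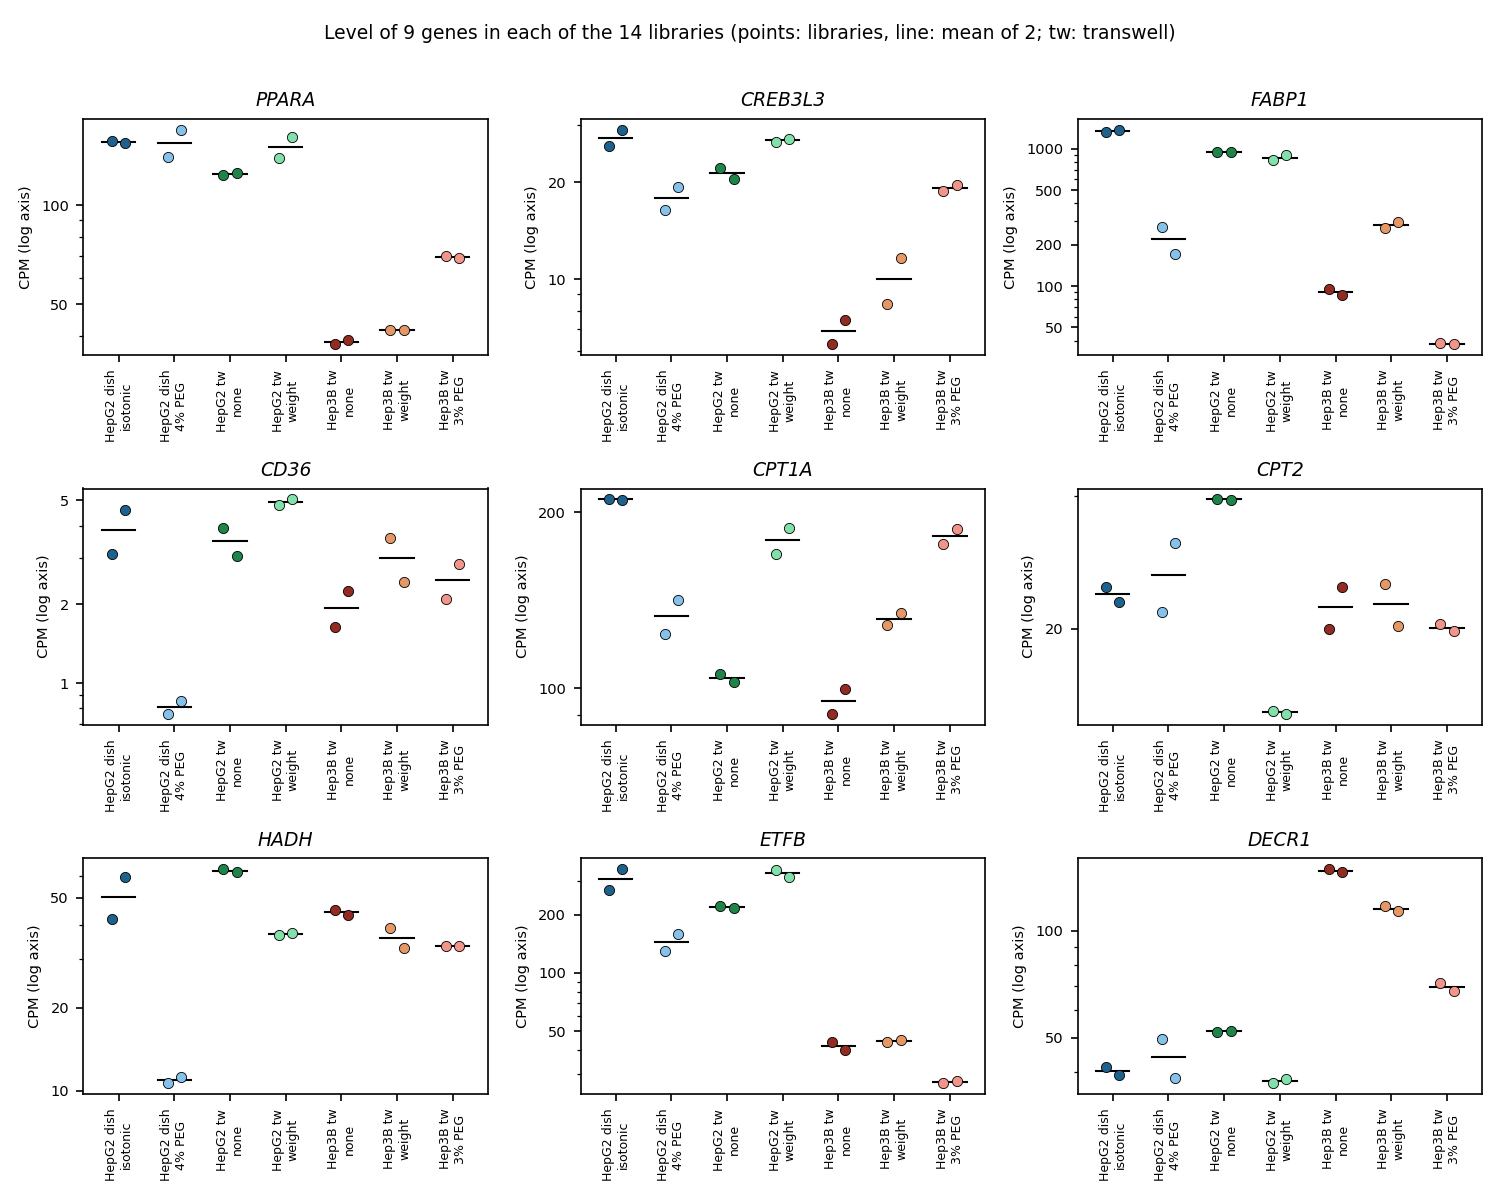
CPM (log axis) of 9 members in each of the 14 libraries, with a line at the mean of each group of 2. FABP1 is high in HepG2 except in 4% PEG and moves in opposite directions in Hep3B under the weight and in 3% PEG, CPT2 is lowest in HepG2 under the weight, and PPARA and CREB3L3 are highest among the Hep3B groups in 3% PEG.

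PEG changed 15 members differently in HepG2 and Hep3B by the interaction test, 14 of them more positive in Hep3B, where 25.5% of all genes passed. Line, PEG concentration, culture surface, time and any other difference between the dish and transwell sets cannot be told apart in this contrast. Scaled by total counts alone, 9 were more positive in Hep3B and 3 more negative. CREB3L3 was at -0.62 in HepG2 and 1.48 in Hep3B (a difference of 2.10 ± 0.26, adjusted p = 0.000105). CPT1A was at -0.67 and 0.94 (a difference of 1.60 ± 0.15, adjusted p = 1.49e-05). CD36 was at -2.25 and 0.35 (2.60 ± 0.44, adjusted p = 0.00108). PPARA was at -0.01 and 0.86 (0.87 ± 0.16, adjusted p = 0.00216). DECR1 went against the rest, at 0.13 and -1.09 (-1.21 ± 0.17, adjusted p = 0.000308). HADH and FABP1 were lower by more in HepG2, with differences of 1.8 ± 0.23 and 1.35 ± 0.24.

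Between the 2 PEG comparisons, which share no libraries, 7 members fell in both: FABP1, HADHB, ACAA2, ECI2, ETFB, HSD17B4 and SCP2. They make up 33.3% of the 21 falls in HepG2 and 87.5% of the 8 in Hep3B. Of all genes that fell, those that fell in both made up 23.9% in HepG2 and 47.8% in Hep3B. Whether the members differ from other genes in this was not tested. CREB3L3 and CPT1A fell in HepG2 and rose in Hep3B. They make up 9.52% of the falls in HepG2 and 50% of the 4 rises in Hep3B. For all genes these shares were 4.75% and 9.95%, and the difference was not tested. Neither fall in HepG2 held on the dish libraries alone without use of the replicate numbers. Among the 33 genes, 7 passed in none of the 4 comparisons (ACADVL, ECHS1, ECI1, DECR2, ACOX2, ACOT1 and ACOT2). Another 19 fell in at least 1 and rose in none, 3 rose in at least 1 and fell in none (PPARA, SLC25A20 and ETFDH), and 4 did both (CREB3L3, FABP1, CPT1A and ETFB). These patterns were not counted over all genes, so whether they are unusual was not tested.

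**Figure D4:**
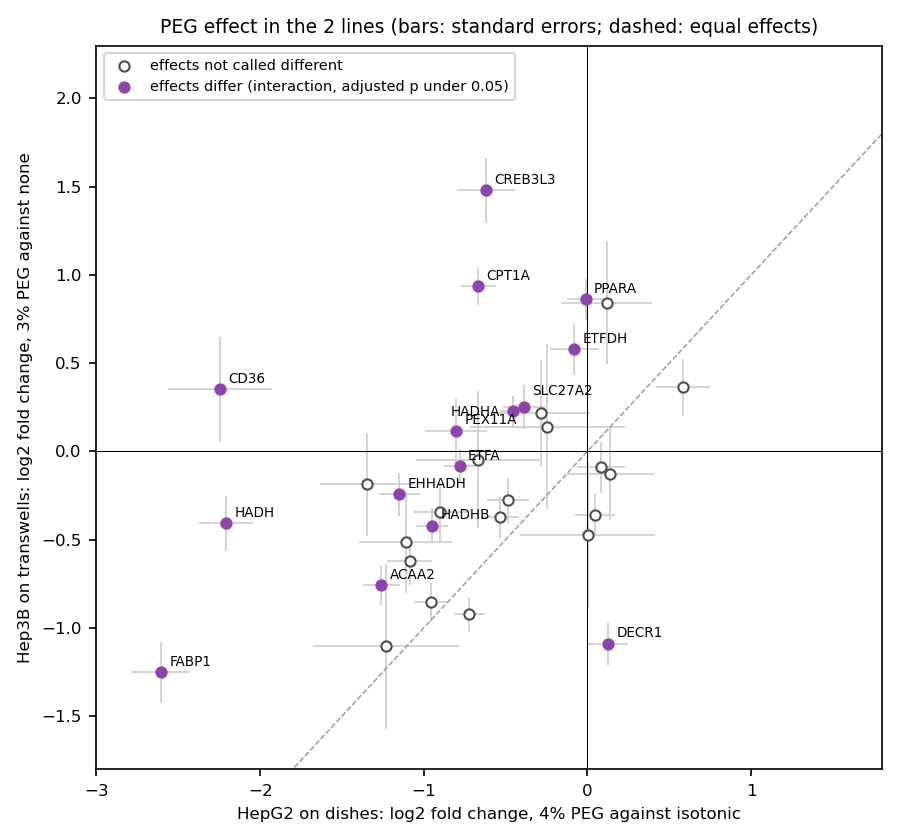
Log2 fold change of each tested member in HepG2 on dishes with 4% PEG (x axis) and in Hep3B on transwells with 3% PEG (y axis), with bars for standard errors, a dashed line at equal effects and filled points where the effects differ by the interaction test. Of the 15 filled points, 14 lie above the dashed line and DECR1 lies below it.

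Other genes of fatty acid oxidation and PPAR signalling were counted from a list of 60, of which 56 were tested. In HepG2 with 4% PEG 16 rose and 13 fell, which is 51.8% of the 56 against 46.9% of all genes, with a median of 0.03. ACSL1, which activates long-chain fatty acids, rose from 35.9 and 40.0 CPM to 234 and 238 CPM (2.64 ± 0.12, adjusted p = 1.51e-08). PLIN2, the lipid droplet coat protein, fell from 1155 and 1683 CPM to 152 and 166 CPM, and PPARGC1A, a coactivator of PPARA, changed by -2.71 ± 0.16. In HepG2 under the weight 4 rose and 3 fell (12.5%, against 9.58% of all genes). VNN1, the pantetheinase and a PPARA target, rose from 10.5 and 8.65 CPM to 55.2 and 53.1 CPM. TXNIP, which binds thioredoxin, changed by 1.06 ± 0.16. The cytosolic thiolase ACAT2 fell from 472 and 463 CPM to 223 and 245 CPM.

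In Hep3B under the weight 4 of the 56 rose and none fell (7.14%, against 1.05% of all genes). TXNIP changed by 1.32 ± 0.16, PLIN2 by 1.07 ± 0.15 and the receptor PPARG by 0.94 ± 0.13. In Hep3B with 3% PEG 13 rose and 8 fell (37.5%, against 22.5% of all genes). ACSL1 rose from 24.7 and 24.2 CPM to 151 and 154 CPM (2.64 ± 0.12, adjusted p = 2.82e-07), HACL1, which shortens branched chains, changed by 1.35 ± 0.12 and ACAT2 by -1.23 ± 0.11.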

How the data were processed

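RNA from HepG2 and Hep3B was sequenced as paired reads of 100 bp, per the labels. GRCh38 (hg38), STAR and DESeq2 appear in the submitters' processing notes with no version or role. What counted the reads, on which annotation and with what strand setting, is not given in the sources used here. Raw counts per gene were deposited by the authors in 1 table, 1 column per library, not normalised. The Hep3B control columns were assigned to uncompressed Hep3B, the only group without columns of its own name. Entries without a gene name held 0.229% to 0.308% of a library's counts.

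The tests used edgeR 4.0.16 (R 4.3.3). Genes passed filterByExpr with a minimum count of 10, libraries were scaled by TMM, and a robust quasi-likelihood model with a mean for each of the 7 groups was fitted to the 14 libraries, which leaves 7 degrees of freedom. The Benjamini-Hochberg adjustment ran over 19232 genes, with a threshold of 0.05. Scripts were tested on simulated data. Coordinates and exon lengths are from GENCODE 29 (GRCh38), where the length of a gene is the union of all its annotated exons. Levels and ratios per kb depend on these lengths. The change of a ratio between groups does not. Coordinates of promoters are RefSeq's. The members and lists were chosen with earlier results of these data known. Every member is named. Values per library are given in a comparison for PPARA, for the 4 members of smallest p, and for those past the threshold with an absolute log2 change of at least 1 and a mean of at least 1 CPM. Of related genes the 3 of smallest adjusted p are named. A few further per-library values were added after they were seen.

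Alternatives were RLE factors, no or a stricter filter (5 CPM in 2 libraries), a replicate block, the groups or the surface fitted alone, DESeq2 1.42.0, leaving out each library, and, chosen after seeing the data, total-count scaling and a replicate block on dishes only. Protein sequences of ACOT1 and ACOT2 were not analysed here.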

Additional observations from a re-analysis of the deposited data

Results flagged for a closer look

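The effects of the same kind of compression differed between HepG2 and Hep3B, by the interaction test, for members in 17 cases. Under the weight, FABP1 differed by 1.75 ± 0.24 (adjusted p = 0.00337) and CPT2 by 0.95 ± 0.21 (adjusted p = 0.0408), both more positive in Hep3B. For PEG, line, concentration, surface, time and other differences between the dish and transwell sets cannot be told apart. With it, the regulators PPARA and CREB3L3 differed by 0.87 and 2.10. The uptake genes CD36, SLC27A2 and FABP1 differed by 2.60, 0.64 and 1.35, and CPT1A by 1.60. In the mitochondrial spiral HADH differed by 1.8, HADHA by 0.68, HADHB by 0.53 and ACAA2 by 0.50. ETFA and ETFDH differed by 0.70 and 0.66, and the peroxisomal genes EHHADH and PEX11A by 0.91 and 0.92. DECR1 differed in the other direction, by -1.21. Of the 15 PEG differences, 10 passed when the 4 groups compared were fitted alone, where 2732 of 18749 genes passed.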

How the results depend on the processing

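All counts here are of members past the threshold. Fitted by surface or by the groups alone, 4% PEG in HepG2 gave 8, where 3764 of 17092 genes passed. The weight in HepG2 gave 23 and 24, the weight in Hep3B 14 and 12, 3% PEG 25 and 25, the weight against 3% PEG 23 and 23, and the weight interaction 14 and 14. The surface fits passed 38.6% and 15.2% of all genes for the weight in HepG2 and Hep3B. For 3% PEG, weight against 3% PEG and the weight interaction it was 52.6%, 52.1% and 22.4%. By groups, 6972 of 15653 and 2474 of 16303 genes passed for the weight in HepG2 and Hep3B. For the other 3 it was 9864 of 16445, 9328 of 16391 and 3733 of 17823. With the groups alone, transwell against dish gave 0 and 4% PEG against weight 9, where 0 of 15532 and 3551 of 17471 genes passed. The weight in Hep3B gave 2 with the stricter filter, and 2 with DESeq2, where 208 of 12237 and 470 of 16039 genes passed. Transwell against dish gave 2 with RLE factors, 8 with total counts and 9 with DESeq2. All genes that passed were then 1824 of 19232, 2831 of 19232 and 2561 of 16039. The weight interaction gave 1 without a filter and 5 with DESeq2, where 675 of 38337 and 827 of 13809 genes passed. Total-count scaling gave 7 higher and 1 lower for transwell against dish. It gave 9 and 3 for the PEG interaction, and 6 and 6 for 4% PEG against weight. In the last 2, 5340 and 6574 of 19232 genes passed. Under total-count scaling ACAA2 and ETFA turned to 0.04 and 0.06 between the lines, neither past the threshold. The cause of these shifts was not tested.

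Leaving out 1 library gave 20 to 23 members for 4% PEG (22 with all), 5 to 6 for the weight in HepG2 (12), 1 to 1 for the weight in Hep3B (1), 8 to 9 for 3% PEG (12) and 7 to 8 for the weight against 3% PEG (13). It gave 18 to 20 between the lines (25), 1 to 8 for transwell against dish (4), 1 to 1 for the weight interaction (2), 10 to 19 for the PEG interaction (15) and 8 to 18 for 4% PEG against weight (15). The remaining library of a group is then assumed to vary like the other groups. How many of all genes passed also moved in these fits, and the member counts are not set against it.

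The labels give no reason to pair samples by replicate number. Over 21 pairs of groups, deviations of same-numbered libraries correlated at -0.0777 to 0.633, over 0.1 in 3. The highest was between the isotonic and 4% PEG dishes, a hint from the data and not the design. A replicate block over all libraries gave 2 members for the weight in Hep3B, adding CPT1A, and lost none of the calls in any comparison. A replicate block on dishes only, chosen after seeing the data, gave 23 members for 4% PEG in HepG2, the 22 and ACOT1. With it 12374 of all 19232 genes passed. The same 23 passed on the dish libraries alone, where 1 residual degree of freedom is left and 11063 of 17092 genes passed. The calls that a fit of those libraries without the block lost were thus kept with it, ACADS among them. That block gave 24 for the PEG interaction and 26 for 4% PEG against weight, where 9123 and 9864 of 19232 genes passed. CYP4A11 had too few counts to test, and CD36 rests on 24 to 98 counts on dishes.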

Other observations

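Neighbouring pathways were counted in the same fits. Shares of a list past the threshold stand beside those of all genes, which were 46.9% for 4% PEG, 22.5% for 3% PEG, and 9.58% in HepG2 and 1.05% in Hep3B under the weight. Of 38 nuclear genes of oxidative phosphorylation, which use the electrons from fatty acid oxidation, 17 fell and 2 rose in HepG2 with 4% PEG (50%, median -0.32), and 15 fell and none rose in Hep3B with 3% PEG (39.5%, median -0.38). Under the weight 3 fell in HepG2 (7.89%). None passed in Hep3B under the weight by edgeR, where 1 had an unadjusted p under 0.05.

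Of 23 tested genes of fatty acid synthesis, the opposite pathway, 5 rose and 6 fell in HepG2 with 4% PEG (47.8%), and 4 rose and 6 fell in Hep3B with 3% PEG (43.5%). Under the weight 1 rose and 3 fell in HepG2 (17.4%), and 1 rose in Hep3B (4.35%). Genes that build peroxisomes, 14 in all, showed 3 rises and 3 falls in 4% PEG (42.9%), 2 falls in 3% PEG (14.3%) and none past the threshold under the weight, where 2 had an unadjusted p under 0.05 in HepG2 and 0 in Hep3B.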
